A study of Caenorhabditis elegans with 12 samples.

Results

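Expression of 9 genes of fatty acid synthesis and elongation was followed in whole worms of the nematode Caenorhabditis elegans: the acetyl-CoA carboxylase gene pod-2, the fatty acid synthase gene fasn-1, the elongase genes elo-1, elo-2, elo-3, elo-5, elo-6 and elo-9, and the reductase gene let-767. They were chosen by gene name, and all 9 of 9 were found among the 21982 genes of the table. The 6 Green libraries came from worms of strain KH2235 on day 6 whose ret-1 minigene splicing reporter gave mostly GFP, and the 6 Red libraries from worms of the same strain and day whose reporter gave mostly mCherry. Every worm carried the reporter, and the sources used here do not give the promoter that drives it. The libraries form 6 batches, with 1 of each colour per batch. Setting Green against Red asks which genes differ between same-aged worms of one strain that splice the reporter differently. The labels do not name separate cultures, and p-values then speak for the spread of these libraries alone. Values are normalized counts, in which each library's gene counts share 1 size factor.

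Fatty acid synthesis starts in the cytosol, where acetyl-CoA carboxylase makes malonyl-CoA and fatty acid synthase builds palmitate from it. Elongases then lengthen acyl-CoA chains in the endoplasmic reticulum, in a cycle that also needs a ketoacyl-CoA reductase, a dehydratase and an enoyl-CoA reductase. In C. elegans this system also makes monomethyl branched-chain fatty acids, whose primers come from the breakdown of branched-chain amino acids, and long polyunsaturated fatty acids. These products enter membrane lipids, sphingolipids and yolk.

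Recovered totals ran from 30185155 to 87141961 reads per library. The members held from 40 reads (elo-9) to 55742 reads (pod-2) in a library, so counting error was small beside the spread between libraries except for elo-9. Red replicate 6 stood apart from the other 11 libraries on the second principal component, which held 19.1% of the variance. It was the highest Red library for pod-2 and let-767 and the lowest for elo-3, elo-5 and elo-9, so results that rest on it are given with and without it. In RNA from whole worms, fewer cells of a type cannot be told apart from less RNA per cell.

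Of the 9 members, fasn-1 was lower in Green, elo-1, elo-3 and elo-6 were higher, and the other 5 did not pass (limma, Benjamini-Hochberg adjusted p under 0.05 over 14618 genes). Among all tested genes 39.1% were called (19% higher and 20.1% lower in Green), and 3 higher and 1 lower of 9 is near those shares. These were 2781 genes higher and 2938 lower, a split that moved to 4163 and 2337 under median centring. With the batch as a block the members' counts were again 3 and 1, against 23.2% and 22.6% of all genes. In edgeR they were 1 and 1 (16.2% and 22.2%), under quantile normalization 0 and 1 (16.1% each), and without Red replicate 6 they were 5 and 1 (29.3% and 25.5%), as they were with the block and without batch 6 (33.1% and 28.1%). The median log2 fold of the members was 0.16, against 0.04 over all tested genes. Within batches, elo-1, elo-3, elo-5 and elo-6 were higher in Green in 6 of 6 batches, as were 21.1% of tested genes, and fasn-1 was lower in 6 of 6, as were 20.2%. In 0 of 9 members were the Green and Red ranges apart, a separation seen in 16.8% of tested genes.

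**Figure D1:**
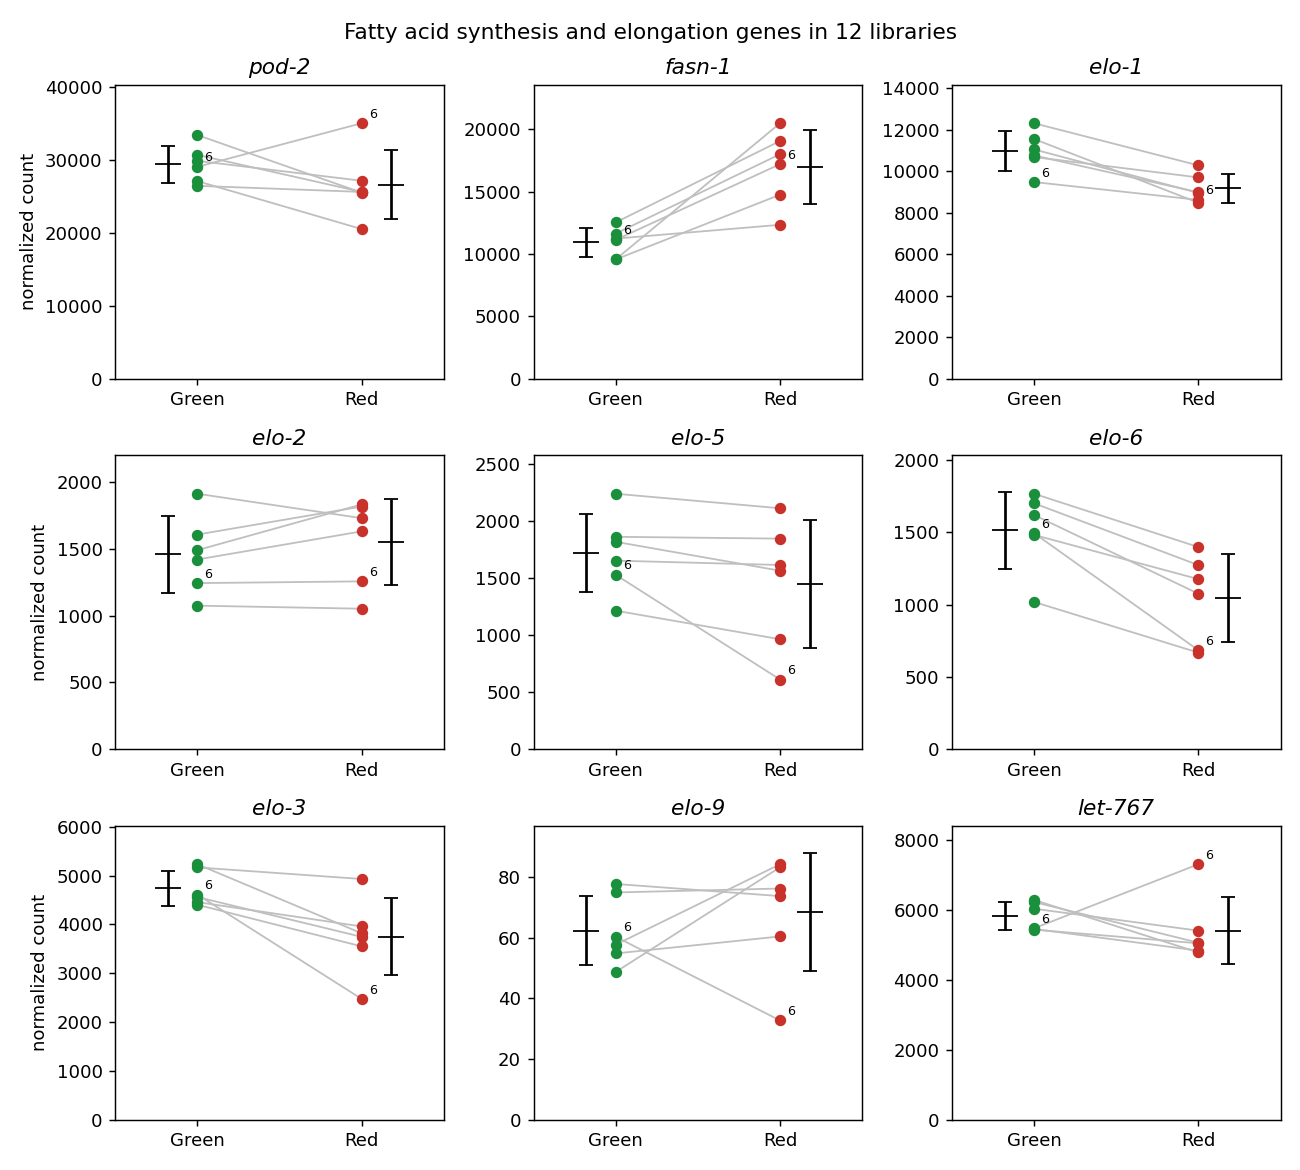
Normalized count (vertical axes, each starting at 0) of each member in the 6 Green and 6 Red libraries, with grey lines joining the libraries of 1 batch, black bars giving mean and SD (n = 6), and the libraries of batch 6 numbered. The fasn-1 lines all rise from Green to Red, those of elo-1, elo-3, elo-5 and elo-6 all fall, and in pod-2 and let-767 batch 6 runs against the other 5 batches.

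The fatty acid synthase gene was the one member lower in Green. fasn-1 (WBGene00009342; I, 8975366 to 8986540, minus strand, WBcel235), whose enzyme joins malonyl-CoA units into palmitate, had 9558.7 at the lowest, 11179 at the median and 12530.7 normalized counts at the highest in Green, and 12335.7, 17596.7 and 20479.1 in Red. The groups overlapped only through Green replicate 4, which lay just above Red replicate 3. The Green mean was 10940.8 ± 1177.2 and the Red mean 16968.4 ± 2972.2 (SD, n = 6 each), 1.55-fold higher in Red. On the log2(value + 1) scale the fold of Green over Red was -0.62, with a standard error of 0.12 and a 95% interval from -0.87 to -0.37 (limma adjusted p = 0.0013). Of all tested genes 17.7% had a lower fold. Within batches the log2 difference was -0.14 in batch 3, -1.10 in batch 2 and between -0.63 and -0.60 in batches 1, 4, 5 and 6. Batch 3 held the Red library with the lowest fasn-1 count. Without Red replicate 6 the log2 fold was -0.61 (limma adjusted p = 0.0012).

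The carboxylase that supplies the synthase did not differ in the same way. pod-2 (WBGene00004076; II, 1136785 to 1152705, plus strand), which makes malonyl-CoA and is named for the polarity and osmotic defects of embryos that lack it, ran from 26461 through a median of 29475.4 to 33428.1 in Green and from 20525 through 25625 to 35047.8 in Red. Red replicate 6 was the highest of all 12 libraries, and the other 5 Red libraries lay at or below 27155. The log2 fold was 0.16 with an interval from -0.07 to 0.39 (limma adjusted p = 0.24). Without Red replicate 6 it was 0.24, from 0.07 to 0.42, and passed (limma adjusted p = 0.019). pod-2 was higher in Green in batches 1 to 5, by 0.05 to 0.40 on the log2 scale, and lower in batch 6, by 0.27. Its exons share 139 bases with W09B6.4 on the other strand, a gene with a mean of 996 normalized counts in Green. The library kit was stranded, but whether counting used strand is not given in the sources used here.

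Set against pod-2, fasn-1 separated the groups. The ratio of fasn-1 to pod-2 counts, which is not scaled by length and is compared only between libraries, was 0.320 to 0.440 in Green with a median of 0.370, and 0.481 to 0.754 in Red with a median of 0.710. Every Green library lay below every Red library, as did 9.95% of the other tested genes when divided by pod-2. The nearest Red libraries were replicates 3 and 6, at 0.481 and 0.491. The mean log2 ratio was lower in Green by a difference of -0.78, with a standard error of 0.14 (exact two-sided permutation p = 0.0022, the smallest that 6 against 6 libraries can give; 0.0065 adjusted over 3 ratios), and it was lower in 6 of 6 batches. With the batch pairs kept, exact sign flips gave p = 0.031, again the smallest possible, or 0.047 adjusted over the 3 ratios. That adjusted value rests on the elo-1 to elo-2 ratio having the same smallest p.

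**Figure D2:**
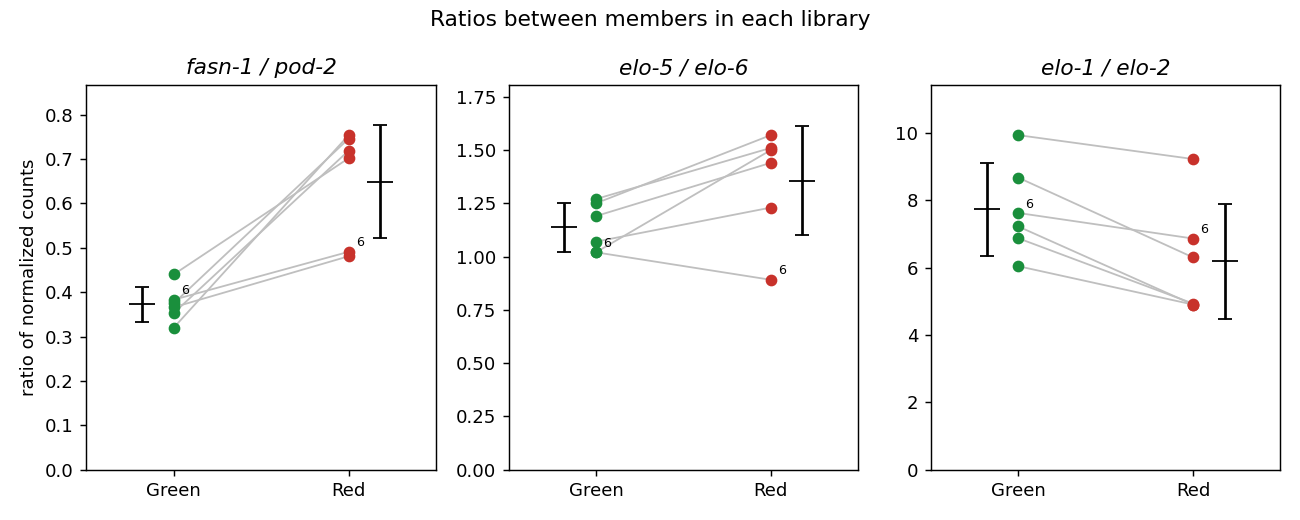
Ratios of normalized counts between 3 pairs of members in each library (vertical axes start at 0), Green and Red, with grey lines joining the libraries of 1 batch, black bars giving mean and SD (n = 6), and batch 6 numbered. For fasn-1 to pod-2 the Green libraries all lie below the Red ones, while the ranges of the other 2 ratios overlap.

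Of the elongases of straight-chain and polyunsaturated fatty acids, elo-1 was higher in Green and elo-2 did not pass. elo-1 (WBGene00001239; IV, 9526366 to 9528336, plus strand), which lengthens polyunsaturated acyl chains on the way to arachidonic and eicosapentaenoic acid, ran from 9485.4 through a median of 10913.6 to 12323 in Green and from 8486.6 through 8977.5 to 10290.2 in Red. Green replicates 1 to 5 exceeded 10290.2 and Green replicate 6 did not. The log2 fold was 0.26 ± 0.08 (standard error; limma adjusted p = 0.017), and the differences within batches were 0.14 to 0.45. Quantile normalization lowered the fold to 0.10 and ended the call (limma adjusted p = 0.28). elo-2 (WBGene00001240; IV, 17466062 to 17467408, minus strand), which lengthens palmitate to stearate, ran from 1076.3 through 1456.8 to 1915.3 in Green and from 1052.7 through 1682.6 to 1835.5 in Red. Its groups covered almost the same range, with a log2 fold of -0.09 (interval -0.43 to 0.25, limma adjusted p = 0.69). Batch 1 gave the lowest Green and the lowest Red library of elo-2 alike. The interval with the batch as a block was -0.26 to 0.09. Between elo-1 and elo-2 the log2 ratio differed by 0.34 (Green minus Red, exact permutation p = 0.089, 0.11 adjusted over 3 ratios), higher in Green in 6 of 6 batches. Keeping the batch pairs, sign flips gave an adjusted p of 0.047. Red replicate 1 had the highest Red ratio, 9.22, and without it the unpaired difference was 0.47 and passed (exact permutation, adjusted p = 0.026).

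The branched-chain elongases lay near each other on chromosome IV and were higher in Green in every batch, but elo-6 alone passed. elo-6 (WBGene00001244; IV, 5386629 to 5388559, minus strand) extends branched-chain acyl chains, and ran from 1019.1 through 1557.9 to 1767.7 in Green and from 668 through 1126.8 to 1399.4 in Red. Green replicate 1 was the one Green library inside the Red range, and its batch partner was the lowest Red library. The log2 fold was 0.57 ± 0.19 (standard error; limma adjusted p = 0.030), and only 6.59% of tested genes had a higher fold. With the batch as a block the adjusted p was 0.0026. The call was lost in edgeR (0.064), under quantile normalization (0.070) and without batch 6 (0.063). It was also lost when Red replicate 1 or any single one of Green replicates 2 to 6 was left out (0.052 to 0.063), with folds of 0.45 to 0.57.

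elo-5 (WBGene00001243; IV, 5374616 to 5377117, minus strand), needed to make the branched-chain acids, lies 9511 bases from elo-6 with 3 coding genes between. It ran from 1213.2 through 1733.7 to 2236.8 in Green and from 610 through 1588.2 to 2110.4 in Red. Red replicate 6 was the lowest library, and batch 6 gave a log2 difference of 1.32, against 0.01 to 0.33 in batches 1 to 5. The log2 fold was 0.33 with an interval from -0.21 to 0.88 (limma adjusted p = 0.31), and 0.11 without Red replicate 6 (0.64). The exons of elo-5 and of F41H10.3 on the other strand share 162 bases in all, and F41H10.3 had 11206.9 ± 623 normalized counts in Green, well above elo-5, with a log2 fold of 0.30 (limma adjusted p = 0.032). What that overlap adds to elo-5 was not tested. The ratio of elo-5 to elo-6 was 1.02 to 1.27 in Green and 0.891 to 1.57 in Red, a log2 difference of -0.24 (exact permutation p = 0.11, also 0.11 adjusted). In Red replicates 1 to 5 it was at least 1.23, and without Red replicate 6 the difference was -0.35 (0.019 adjusted over 3 ratios).

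let-767 (WBGene00002891; III, 6338508 to 6339969, minus strand), the ketoacyl-CoA reductase needed for branched-chain and long-chain fatty acids, ran from 5433.7 through 5753.1 to 6283.6 in Green and from 4782.6 through 5052.8 to 7304.8 in Red. Without Red replicate 6, which was the highest of all 12, every Red library lay at or below 5406 and every Green library above it. The log2 fold was 0.12 (interval -0.09 to 0.33, limma adjusted p = 0.35), or 0.21 without that library (interval 0.08 to 0.34, limma adjusted p = 0.012). Within batches it was 0.11 to 0.39 in batches 1 to 5 and -0.42 in batch 6. Quantile normalization turned the fold to -0.05.

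**Figure D3:**
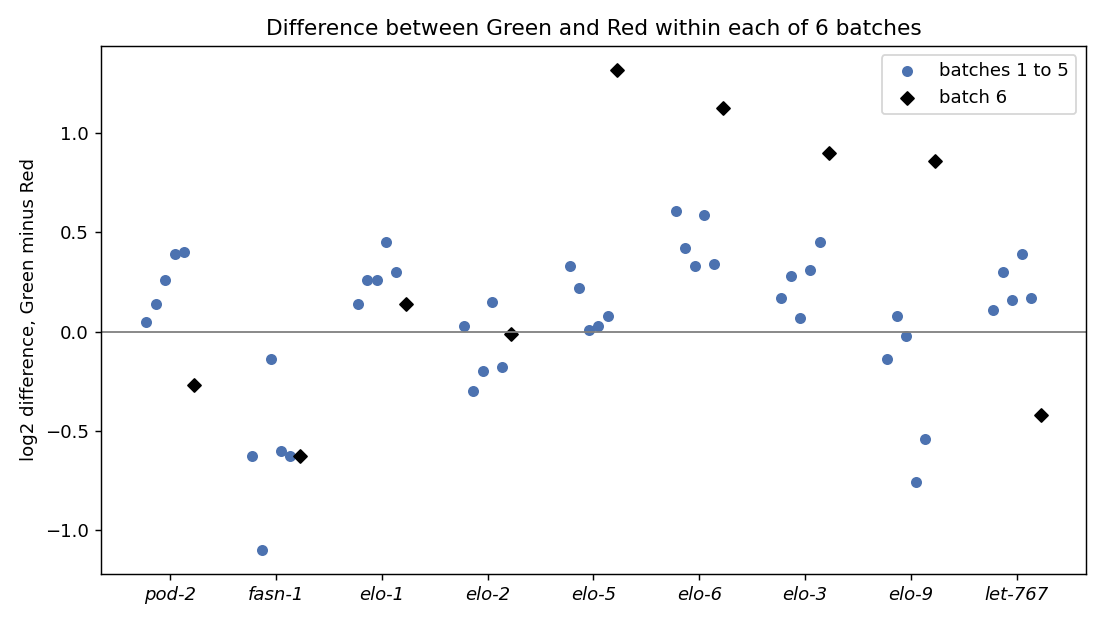
Difference in log2(value + 1), Green minus Red, of each member within each of the 6 batches, with batch 6 as black diamonds and batches 1 to 5 as blue dots. All fasn-1 points lie below 0 (-1.10 to -0.14), and batch 6 is the extreme point of pod-2, elo-3, elo-5, elo-6, elo-9 and let-767.

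Of the less studied elongase genes, elo-3 was higher in Green. elo-3 (WBGene00001241; IV, 7237718 to 7240488, plus strand) ran from 4403.6 through 4586.8 to 5233.6 in Green and from 2473.5 through 3782.5 to 4932.3 in Red. Red replicate 3 was the one Red library inside the Green range. The log2 fold was 0.36 ± 0.13 (standard error; limma adjusted p = 0.034), or 0.25 without Red replicate 6 (0.022). The call was lost in edgeR (0.076), under quantile normalization (0.26, fold 0.20) and when Red replicate 2, 4 or 5 or Green replicate 2, 3, 5 or 6 was left out (0.051 to 0.075). Its exons share 44 bases with gstk-2 on the other strand, which had 47.3 normalized counts in Green. elo-9 (WBGene00001247; II, 14959526 to 14964108, minus strand) was the lowest member, at 48.7 to 77.7 in Green and 32.7 to 84.2 in Red. Its log2 fold was -0.09 (interval -0.58 to 0.40, limma adjusted p = 0.78), with batch values from -0.76 to 0.86, so no difference was detectable. Its sign was positive after median centring and quantile normalization.

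The 3 other elongase genes of the worm were low. elo-4 averaged 62 ± 4.87 normalized counts in the Green libraries against 40.7 ± 12.4 in the Red ones (SD, n = 6), with a log2 fold of 0.66 (limma adjusted p = 0.036), lost in edgeR (0.063), with no filter on low values (0.053) and when Red replicate 2 or 5 or any single Green library was left out (0.050 to 0.067). The log2 fold of elo-8 was -0.43 (limma adjusted p = 0.34). elo-7, at 2.28 in Green and 3.16 in Red, was below the mean of 10 needed for the test.

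Per kilobase of exon, ranks 1 to 4 and rank 9 held the same members in both groups, and the order changed within ranks 5 to 8. elo-1 was the highest, with a mean of 10350.2 ± 895 normalized counts per kilobase in Green and 8650 ± 651 in Red (SD, n = 6), followed by let-767, pod-2 and elo-3. let-767 exceeded pod-2 in 6 of 6 libraries of each group although their ranges overlapped. The ranges of elo-5, elo-6, elo-2 and fasn-1 overlapped from neighbour to neighbour in Green. There elo-6 exceeded elo-2 in 5 of 6 libraries, while in Red elo-2 exceeded elo-6 in 6 of 6. fasn-1 took rank 8 in Green, at 1294.6 ± 139 per kilobase, and rank 5 in Red, at 2007.9 ± 352, where its range overlapped those of elo-3 and elo-5. elo-9 was last in both groups, at 53.7 ± 9.91 and 58.9 ± 16.8.

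**Figure D4:**
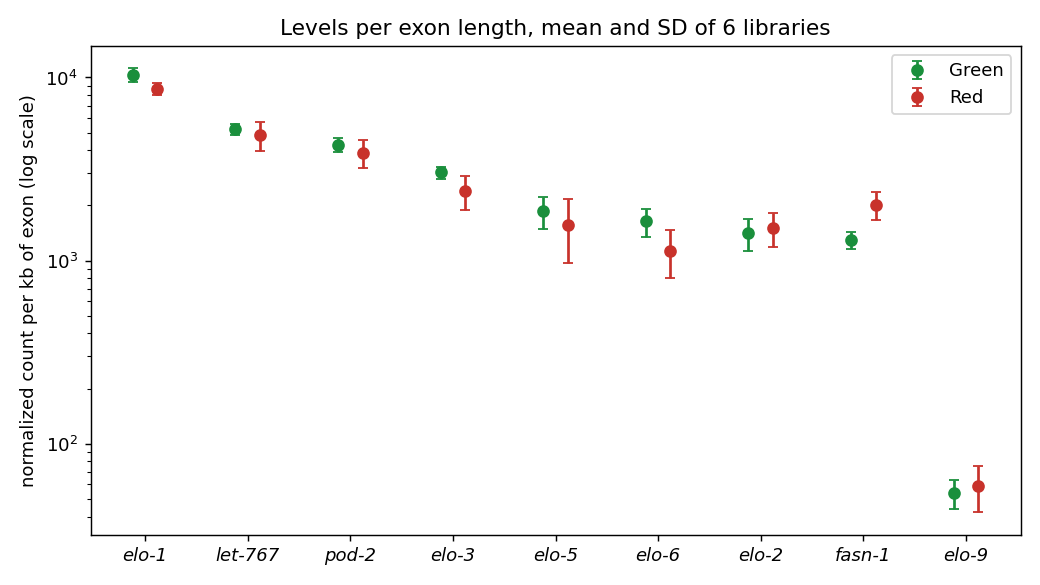
Normalized counts per kilobase of exon (log axis) of each member in Green and Red, as mean and SD of 6 libraries, in the order of the Green means. elo-1 is highest and elo-9 lowest in both groups, and fasn-1 is the one member whose Red point lies above its Green point by more than the bars.

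Part of the genes that feed synthesis with carbon and reducing power rose in Green. Of 9 genes for acetyl-CoA, NADPH and cofactor supply 6 rose and 0 fell, against 19% and 20.1% of all tested genes. Their median log2 fold was 0.39 (0.04 over all tested genes, and 0.11 over those with a mean of at least 50). The ATP citrate lyase gene acly-1 and the acetyl-CoA synthetase gene acs-19, which make cytosolic acetyl-CoA, were higher by log2 folds of 0.53 (limma adjusted p = 0.0064) and 0.41 (0.0039). T25B9.9, a phosphogluconate dehydrogenase gene of the NADPH-producing pentose phosphate pathway, stood at 0.31 (0.0035). Without Red replicate 6, 8 of the 9 rose (29.3% of all tested genes), in edgeR 4 (16.2%) and under quantile normalization 3 (16.1%).

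Genes that supply branched primers moved in both directions. Of 6 genes 5 rose and 1 fell (19% and 20.1% of all tested genes), at a median log2 fold of 0.36. These counts were the same in edgeR, with the batch as a block, under quantile normalization and without Red replicate 6. acs-1, an acyl-CoA synthetase needed for branched-chain fatty acids, averaged 3567.5 ± 458 normalized counts in the Green libraries against 2198.4 ± 220 in the Red ones (SD, n = 6), with a log2 fold of 0.69 (limma adjusted p = 0.00013). bckd-1B, a subunit gene of the branched-chain ketoacid dehydrogenase, was higher by a log2 fold of 0.38 (0.0021). bcat-1, the transaminase gene of the first step of branched-chain amino acid breakdown, was the gene that fell, with 3123.9 ± 321 normalized counts against 4749.9 ± 828 in Red and a log2 fold of -0.59 (limma adjusted p = 0.0011). Of the partners in the elongation cycle, the dehydratase gene hpo-8 and the enoyl-CoA reductase gene art-1 did not pass, standing at 0.10 and 0.11 on the log2 scale (limma adjusted p = 0.37 and 0.38). art-1 passed without Red replicate 6, at 0.20 (limma adjusted p = 0.0093), and hpo-8 without batch 6, at 0.18 (0.023). stdh-1, a relative of let-767, rose by a log2 fold of 0.50 (limma adjusted p = 0.0092). In this list of 6 genes 4 were tested, and 1 rose and 0 fell, near the shares of all tested genes. With the block and without batch 6, 3 of the 4 rose (33.1% of all tested genes).

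**Figure D5:**
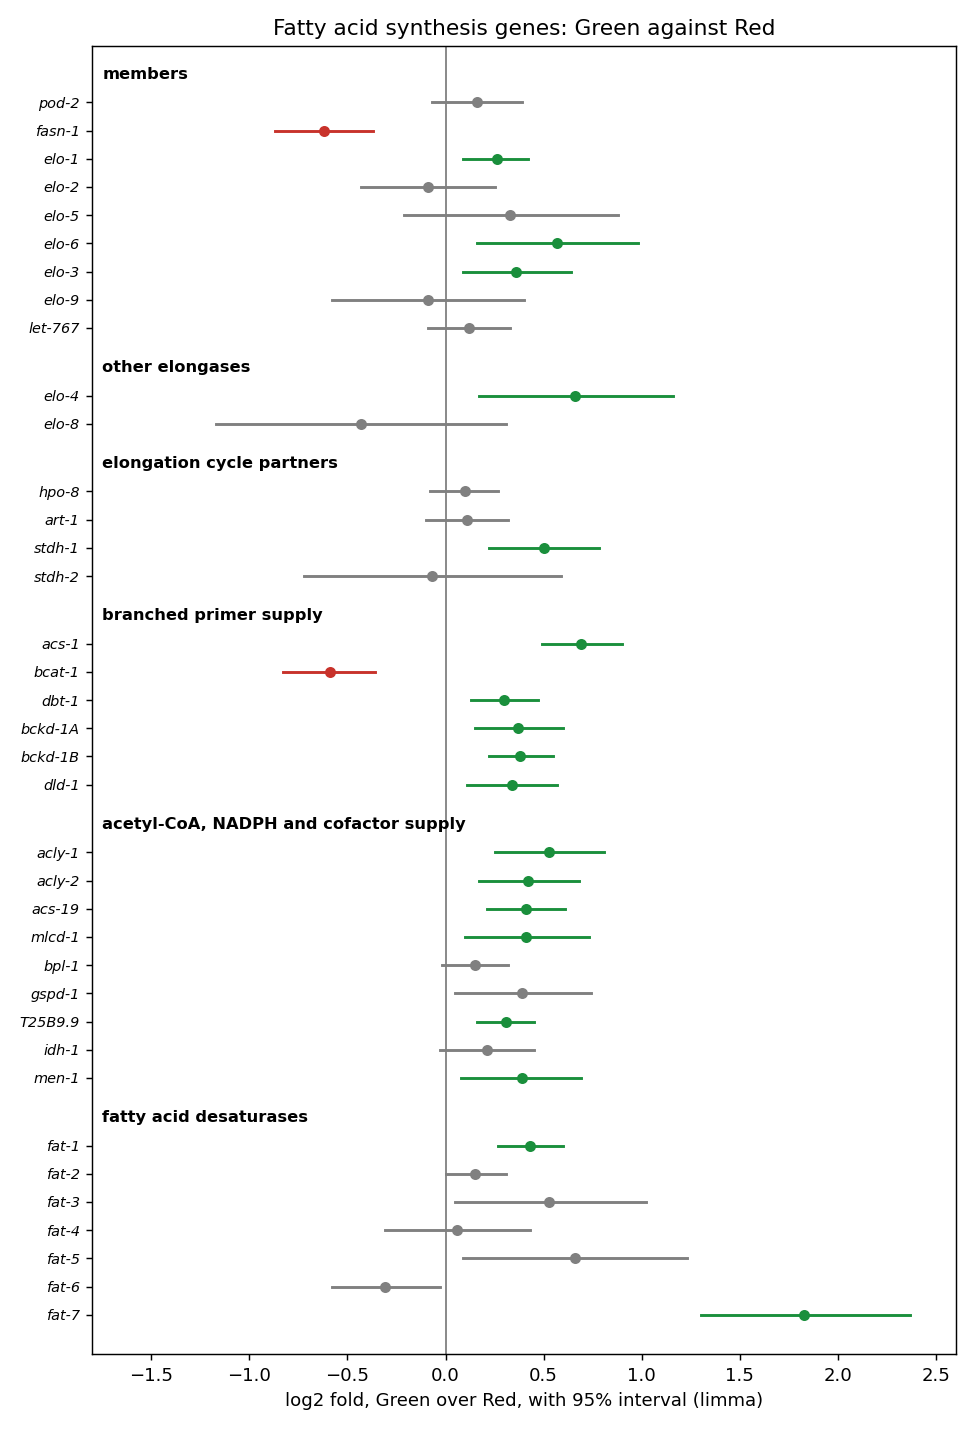
Log2 fold of Green over Red with its 95% interval (limma) for the members and for the tested genes of 5 related lists, in green where called higher, in red where called lower and in grey where not called. fasn-1 (-0.62) and bcat-1 (-0.59) are the genes called lower, and fat-7 (1.83) has the highest fold.

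The lists that act on the products are read against the 19% of all tested genes called higher and the 20.1% called lower. Of 7 desaturase genes 2 rose and 0 fell; the log2 fold was 1.83 for the stearoyl-CoA desaturase gene fat-7 (limma adjusted p = 0.00012) and 0.43 for the omega-3 desaturase gene fat-1 (0.00082), and fat-5 one of 0.66 (0.062, or 0.014 with the batch as a block). With the block 4 desaturase genes rose and 1 fell, without Red replicate 6 the counts were 5 and 1, and without Red replicate 1 they were 4 and 1. The desaturase gene fat-6 went the other way from fat-7, at a log2 fold of -0.31 (limma adjusted p = 0.069, or 0.039 with the block). Its batch differences ran from -0.87 to -0.01. fat-6 averaged 11786.9 normalized counts in Green and 14787.1 in Red, against 502 and 139 for fat-7. The fat-6 call was also made in edgeR (adjusted p = 0.046), but not under median centring (limma adjusted p = 0.26). Of 11 sphingolipid genes tested 4 rose and 1 fell, among them the serine palmitoyltransferase gene sptl-1 and the ceramide synthase genes hyl-1 and hyl-2 at 0.28, 0.36 and 0.26 (limma, with adjusted p-values of 0.017, 0.010 and 0.021); under quantile normalization 0 rose and 1 fell, with the block 5 rose and 2 fell, and without Green replicate 3, 2 rose and 1 fell. Of 9 glycerolipid genes 4 rose and 0 fell, the acyltransferase genes acl-6 and acl-2 and the fatty acid transport protein gene acs-22 at 0.44, 0.41 and 0.60. Of these 9 genes 2 rose under quantile normalization, where acl-2 lost its call (limma adjusted p = 0.054), 7 under median centring and 8 with the block and without batch 6.

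Like most tested genes, of which 39.1% were called, the regulators known for lipid synthesis in worms mostly did not pass. For sbp-1, the SREBP transcription factor gene, the log2 fold was -0.13 (limma adjusted p = 0.36). The mediator subunit gene mdt-15 stood at 0.13 (0.22), and passed without Red replicate 6, at 0.17 (0.048). The nuclear receptor genes nhr-49 and nhr-80 stood at 0.03 (0.76) and 0.21 (0.24). Of the 10 regulators 2 rose and 1 fell, against 19% and 20.1% of all tested genes. These were the nuclear receptor genes nhr-66 and nhr-13 at 0.40 and 0.28 and nhr-64 at -0.49 (limma adjusted p = 0.0079, 0.012 and 0.011). With the block and without batch 6, 5 rose and 2 fell, against 33.1% and 28.1% of all tested genes. There mdt-15 stood at 0.15 (limma adjusted p = 0.048) and nhr-80 at 0.26 (0.037).

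Some tissue markers differed between the groups, where 19% of all tested genes were called higher and 20.1% lower. These shares were 23.2% and 22.6% with the batch as a block, 16.2% and 22.2% in edgeR and 16.1% each under quantile normalization. Lists with 1 call in a direction are too small to be set apart from those shares. All 6 germline markers rose, with summed normalized counts of 140465.7 to 164911.7 in Green, 89043.3 to 126713.9 in Red replicates 1 to 5 and 152063.4 in Red replicate 6. In edgeR and DESeq2 4 of the 6 rose, without glh-1 and gld-1 (edgeR adjusted p = 0.059 and 0.057), under quantile normalization 5, and 4 to 6 when single libraries were left out. Of 7 intestine markers 1 rose and 1 fell (ges-1 at 1.30, act-5 at -0.60; 2 and 2 with the batch as a block), with sums of 7646.5 to 12545.3 in Green and 8916.9 to 14594.8 in Red. Of 8 epidermis markers 2 rose and 3 fell (col-19 at 2.88, nhr-25 at -1.72). Their sums were 4816.5 to 5674 in Green and 3630.7 to 5015.8 in Red, where nhr-23 alone averaged 4028.4 and 2895.7. The median log2 fold of the epidermis list was -0.51, so these sums do not stand for its other markers. Of 4 muscle markers 2 rose and 1 fell (1 and 1 under quantile normalization and without Red replicate 2), with sums of 23004 to 41097.7 and 15137.8 to 29039.8. Of 4 neuron markers 1 fell (unc-119 at -0.39), and of 3 excretory canal markers 1 fell (aqp-8 at -0.69). Of 6 embryo markers 4 were tested, of which 1 rose (pal-1 at 0.37) and 2 fell (tbx-37 at -0.98, elt-1 at -0.62). The sums of these 3 lists overlapped between the groups, but pal-1 alone averaged 6791.3 in Green and 5281.7 in Red. The Green and Red ranges of unc-119, pal-1, tbx-37 and elt-1 were apart, as in 16.8% of tested genes. The sums therefore do not stand for the single markers. None of the 38 markers was at 0 in all libraries. Their part in the differences of the members was not tested.

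The genes most like each member across the 12 libraries were sought among 9947 genes with a mean of at least 100, by Pearson correlation of log2(value + 1). This likeness includes the difference between the groups and the place of Red replicate 6, and is given without a test. For fasn-1 they were clp-4, W06H8.6 and the pseudogene Y73B3A.3 (r = 0.96 each), and for pod-2 eat-17, rme-4 and ahcy-1 (0.97, 0.94 and 0.94). elo-1 was most like Y105E8A.3, T25D3.4 and laat-1 (0.98, 0.98 and 0.97), elo-3 most like nstp-10, drh-1 and hda-2 (0.99 each), and let-767 most like C07D8.6, F36A2.7 and got-2.2 (0.98, 0.97 and 0.97). Likeness was weaker for elo-2, with fbxa-193, ech-7 and adt-2 (0.86, 0.86 and 0.84), and for elo-5, with fbxa-129, ethe-1 and nduo-4 (0.92, 0.92 and 0.91). It was also weaker for elo-6, with cyp-25A1, T04F8.2 and gba-4 (0.93, 0.90 and 0.88). Both fbxa-193 and fbxa-129 are annotated as pseudogenes. Without Red replicate 6 the values for ethe-1 and nduo-4 dropped to 0.78 and 0.76. No member was among the 3 genes most like another.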

How the data were processed

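Whole-worm RNA was made into libraries with a stranded mRNA kit, per the labels' protocols. The submitters' processing notes name Salmon 0.14.2, STAR, DESeq2, MultiQC and FastQC 0.11.8, and the build WBcel235, without settings. What the authors deposited is a normalized signal: the count of each gene over a size factor common to the whole library. Multiplied by a recovered factor, 100% of the values of each library were whole reads within 0.001; for Red replicate 2 the factor is close to 1, so that test is less decisive. Positions and exon lengths came from Ensembl release 115 of the same build.

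Green was tested against Red with limma 3.58.1 (R 4.3.3, trended eBayes, no block). Values entered as log2 of the normalized count plus 1, for the 14618 genes whose mean reached 10, and p-values were adjusted by Benjamini-Hochberg. The script was tested on simulated data first. Alternatives were the batch entered as a block, a pseudocount of 5 or of 0.5, a minimum mean of 50 or none, robust eBayes, median centring, quantile normalization, single libraries or batch 6 left out, and recovered reads tested with DESeq2 1.42.0 or edgeR 4.0.16 (TMM). Each of these changed 1 choice, except that the tests on reads changed the input, the model and, in edgeR, the scaling together. Added after seeing the data was the block without batch 6. Deviations from the group means correlated by 0.11 to 0.37, across genes, between the libraries of 1 batch. No different-batch value is given beside these, so the pairing of libraries by number rests on the labels. Permutations used scipy 1.17.1.

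The members, lists and tests were chosen with earlier results of these data known. Named beside the members were 9 genes of the related lists fixed by name, elo-7, and up to 3 per list with the smallest p. The 3 genes most like each member were also named, but elo-9 was below the mean of 100 needed for that search. Named after seeing their values were fat-6, glh-1 and gld-1. sms-5, of the sphingolipid list, was not found by name. No sequence is shown.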

Additional observations from a re-analysis of the deposited data

Results flagged for a closer look

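For let-767 the highest Red library, replicate 6 with 7304.8 normalized counts, stood apart from the other 5 Red libraries: its gap to the next library was 0.75 of the group's whole range, above Dixon's 95% critical value for 6 libraries. Of 24 groups of 6 examined (9 members and 3 ratios, Green and Red), 1 was marked in this way, and chance marks about 1 in 20.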

How the results depend on the processing

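fasn-1 stayed called lower in Green under all 24 alternatives, with log2 folds from -0.79 to -0.49. The ratio of fasn-1 to pod-2 passed under all 14 of its own (-0.87 to -0.73). With no overlap of that ratio between the groups, leaving out libraries could not end the pass, so those passes add no support. The members called higher were 3 in the main test, 0 under quantile normalization, 1 in edgeR, 5 with the block but without batch 6, and 1 to 5 without single libraries, with 5 without Red replicate 6; 1 member was called lower throughout. Over all genes, calls higher in Green were 1977 to 4287 without single libraries and 4838 with the block but without batch 6, against 2781; those lower were 2441 to 3722, against 2938. Without single libraries the elo-5 to elo-6 ratio was -0.35 to -0.19 and the elo-1 to elo-2 ratio 0.27 to 0.47; the first was -0.32 without batch 6 and passed, and the second, at 0.34, passed with the batch pairs kept, as it did without Red replicate 1 (0.47). With the batch as a block the calls of 0 members changed, and of the genes named from the lists, those of fat-5 and fat-6. Median centring moved the median of all genes from 0.04 to 0.16 and turned elo-2 and elo-9 to 0.04 each. Quantile normalization turned elo-9 to 0.19, let-767 to -0.05, elo-8 to 0.02, hpo-8 to -0.07, art-1 to -0.06, mdt-15 to -0.02 and nhr-49 to -0.15. sbp-1 was 0.01 without batch 6, with or without the block. nhr-49 was -0.01 in edgeR and without Green replicate 6, and -0.02 without batch 6, with or without the block. The cause of these shifts was not tested. At the depth of elo-9 and elo-7, small differences were not detectable.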
